A study of Mus musculus with 2 samples.

Results

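Single-cell RNA sequencing (scRNA-seq) counts of mouse cerebral cortex held 1142 cells, of 17653 past the filters, that carried transcripts of at least 4 of the 7 genes Cpne7, Ano2, Chst9, Car12, Ntng1, 6530403H02Rik and B230303A05Rik. These selected cells were chosen by the presence of at least 1 unique molecular identifier (UMI, 1 counted RNA molecule) of each of those genes and by at most 1 UMI of Gad1 and Gad2 together, the enzymes that make GABA. Cells entered the choice with at least 1000 UMIs, at least 500 genes and at most 10% of UMIs from mitochondrially encoded genes. The control library held 347 selected cells of 9540, and the cerebral white matter injury (WMI) library held 795 of 8113. The levels of the 7 genes in the selected cells are therefore a description of the choice and not a result.

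Both libraries came from C57BL/6 mice described as 2 weeks old, with cortex taken on postnatal day 14 by the labels. By the labels, the right common carotid artery of the WMI group was ligated on postnatal day 7 with hypoxia for 1 h, and the cortex of the ligated side was compared with the same side of control brains. Each group held 1 library, so no difference between the groups could be tested, and treatment, animal, sex, dissection and library cannot be told apart. The number of animals behind a library is not given in the labels. The study's methods differ from the labels in the day of surgery, the length of hypoxia, the age at sampling and the number of replicates. They describe dissociated cells where the labels speak of nuclei. The control differs too, as the study speaks of a control side and of sham hemispheres where the labels give control brains. The control library held 66470806 UMIs over 10288 barcodes and the WMI library 60568639 over 8354, and the cells past the filters had medians of 4727.5 and 5267.0 UMIs. Xist or Tsix, the noncoding RNAs of X inactivation in female cells, was counted in 3 of the 347 control selected cells (0.865%) and in 561 of the 795 WMI selected cells (70.6%), so the libraries differed in sex composition as well as in treatment. The libraries shared 34 barcodes, of which 0 were among the selected cells.

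The names Cpne7, Ano2 and Ntng1 raise the question of which brain region such cells come from. Ntng1 encodes netrin-G1, a protein anchored to the axon surface that binds NGL-1 (Lrrc4c) on the partner neuron and is well known from thalamic neurons, whose axons reach the cortex. Cpne7 encodes a copine, a protein that binds membranes in the presence of calcium, Ano2 a calcium-activated chloride channel, Car12 a membrane carbonic anhydrase and Chst9 a carbohydrate sulfotransferase. Thalamic relay neurons of rodents use the vesicular glutamate transporter gene Slc17a6 and the transcription factor genes Tcf7l2, Gbx2 and Lef1, whereas excitatory neurons of the cortex use Slc17a7, Tbr1, Neurod2 and Neurod6. Within the cortex, layers and projection types differ in further genes, such as Cux2 in layer 2/3, Fezf2 and Bcl11b in neurons that project out of the telencephalon from layer 5, and Foxp2 and Tle4 in layer 6 neurons that project to the thalamus.

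Ano2, Chst9 and Car12 were each found in a minority of the selected cells. Ano2 was detected in 10.1% (control) and 18.9% (WMI) of the selected cells, Chst9 in 18.7% and 33.5%, and Car12 in 13.5% and 22.3%. Cpne7 was detected in 83.0% (control) and 83.6% (WMI), Ntng1 in 96.5% and 91.2%, the long noncoding RNA 6530403H02Rik in 92.2% and 91.2%, and the transcribed pseudogene B230303A05Rik in 98.0% and 98.9%. In 213 of the 347 control cells (61.4%) and 347 of the 795 WMI cells (43.6%), the rule was met by Cpne7, Ntng1 and the 2 noncoding transcripts with no UMI of Ano2, Chst9 or Car12. Exactly 1 of those 3 genes was present in 34.9% (control) and 40.6% (WMI), 2 in 3.75% and 13.2%, and all 3 in 20 WMI cells (2.52%) and in 0 of 347 control cells, which by a limit of 3 counts allows a share of up to 0.865%. Most of the cells thus held no Ano2, and they are called the selected cells here.

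The 7 genes lie on 6 chromosomes (coordinates of GRCm38 as in GENCODE M21, an annotation that held every gene identifier of the count tables). Cpne7 (ENSMUSG00000034796) lies on the forward strand at chr8:123117374-123135182, Ano2 (ENSMUSG00000038115) on the forward strand at chr6:125690419-126040126 and Car12 (ENSMUSG00000032373) on the forward strand at chr9:66713686-66766845. Ntng1 (ENSMUSG00000059857) and 6530403H02Rik (ENSMUSG00000098097) both lie on the reverse strand of chromosome 3, at chr3:109780040-110144011 and chr3:120604109-120886733. Chst9 (ENSMUSG00000047161) lies on the reverse strand at chr18:15451924-15760157. As a processed pseudogene, B230303A05Rik (ENSMUSG00000113701) may share reads with its parent gene, which makes its counts uncertain. It lies on the reverse strand at chr13:15813548-16023423 and overlaps 5 annotated genes, among them Inhba on the opposite strand.

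Pooled levels, in UMIs of a gene per 1000000 UMIs of all cells of a set (CPM), were compared with those of other excitatory neurons, which were cells outside the selection with at least 2 UMIs of Slc17a7 and Slc17a6 together, at most 1 UMI of Gad1 and Gad2, and at most 3 UMIs over 10 glial and vascular genes. The control library held 2828 such neurons and the WMI library 1325. The selected cells themselves were not held to the transporter or glial limits: 72.6% (control) and 71.3% (WMI) of them met the first, and 73 of 347 and 389 of 795 exceeded the second. Cpne7 stood at 109 CPM in control selected cells against 26.3 in other excitatory neurons, and at 189 against 46.2 in the WMI library. Ano2 stood at 7.93 against 0.660 (control) and at 26.2 against 1.42 (WMI), and Ntng1 at 463 against 154 and at 501 against 188. Chst9 stood at 19.9 against 5.48 (control) and 67.2 against 8.19 (WMI), and Car12 at 13.4 against 1.94 and 24.1 against 3.93. The selection itself sets these gaps.

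**Figure D1:**
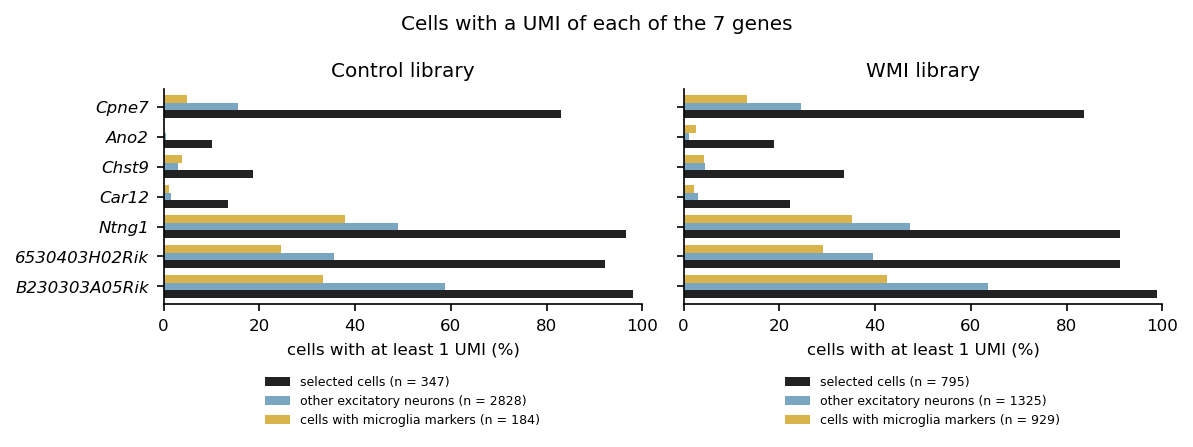
Percent of cells with at least 1 UMI (horizontal axis) of each of the 7 genes that chose the cells, in the selected cells, in other excitatory neurons and in cells with microglial markers of the same library (bars), control and WMI. Ntng1, Cpne7 and the 2 noncoding transcripts were present in 83.0% or more of the selected cells, and Ano2, Chst9 and Car12 in 33.5% or less.

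Cells with exactly 4 of the 7 genes made up 310 of the 347 control and 559 of the 795 WMI selected cells, with medians of 12538.5 and 11823 UMIs per cell and of 12 and 17 UMIs over the 7 genes. Just outside, 1254 control and 1170 WMI cells held 3 of the genes, with medians of 9248.5 and 8095 UMIs per cell and of 6 and 7 over the genes. All 7 genes were present in 0 control and 8 WMI cells. A further 37 control and 91 WMI cells met the gene count and exceeded the limit on Gad1 and Gad2.

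The WMI library held more selected cells than the control library, 9.80% of its cells (95% interval 9.16 to 10.5) against 3.64% (3.27 to 4.03). The difference was 6.16 percentage points (5.41 to 6.92). All intervals for shares are exact binomial (Clopper-Pearson) and those for levels and ratios exact Poisson or conditional binomial, and they cover counting error only and not the spread between animals. The limit given for a count of 0 is not taken from these intervals, and is 3 counts of the total. Of the selected cells and other excitatory neurons together, which leaves the number of glia out, the selected cells made up 37.5% (35.4 to 39.6) under WMI and 10.9% (9.86 to 12.1) in the control. That share fell to 17.2% (WMI) and 6.54% (control) when the selected cells were held to the transporter and glial limits of the comparison neurons, so the difference of 26.6 points became 10.6 points. Without the 1 WMI cluster described below, the difference in the share of all cells was 2.66 points.

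The share of cells that met the rule was higher at greater sequencing depth. The median selected cell had 12655 UMIs (control) and 12602 (WMI), against 7883.5 and 7752.0 in other excitatory neurons. Among cells with 1000 to under 2500 UMIs, 0.0998% (control) and 0.359% (WMI) were selected, and among cells with 20000 or more UMIs 22.4% and 39.1%. The WMI library had the higher share in each of the 5 depth ranges, with 2.98% (control) against 9.26% (WMI) from 5000 to under 10000 UMIs. After every cell was thinned at random to 3000 UMIs, the rule was met by 39 of 6695 control cells, a share of 0.583% (0.415 to 0.795). Of the WMI cells it was met by 230 of 6166, a share of 3.73% (3.27 to 4.23). Thinning left out 2845 control and 1947 WMI cells that had fewer UMIs, and of the cells selected at full depth it kept the call of 39 of 334 control cells (11.7%) and 217 of 787 WMI cells (27.6%).

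**Figure D2:**
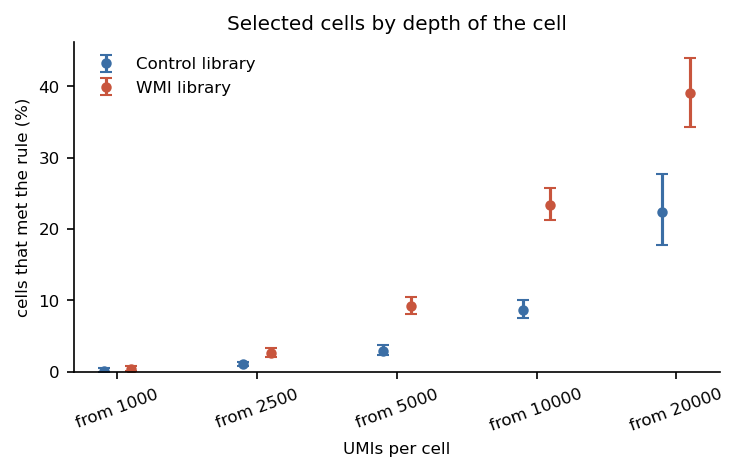
Percent of all cells that met the rule (vertical axis) in 5 ranges of UMIs per cell, each running from its label to the next (horizontal axis), in the control and WMI libraries (points) with 95% exact binomial intervals (bars). The share was higher at each greater depth in both libraries, from 0.0998% to 22.4% (control) and from 0.359% to 39.1% (WMI).

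RNA free in the cell suspension gives UMIs to cells that do not express a gene, and cells with at least 3 microglial markers and no UMI of Slc17a7 or Slc17a6 served as a gauge of it. At full depth 184 control and 929 WMI cells were of this kind, with medians of 3195.5 and 3373.0 UMIs, and 1.09% and 2.48% of them met the rule. Among them, Ntng1 was detected in 38.0% (control) and 35.2% (WMI), B230303A05Rik in 33.2% and 42.5%, and 6530403H02Rik in 24.5% and 29.2%. Cpne7 was detected in 4.89% (control) and 13.3% (WMI) of them, Chst9 in 3.80% and 4.20%, and Car12 in 1.09% and 2.15%. Ano2 was detected in 2.58% of the WMI cells and in 0 of the 184 control cells, which allows a share of up to 1.63%. With all cells at 3000 UMIs, 1 of 113 control microglia-marked cells (0.885%, 0.0224 to 4.83) and 14 of 548 WMI ones (2.55%, 1.40 to 4.25) met the rule. The share of all cells at that depth lay within the interval of the microglia-marked cells in both libraries, at 0.583% for the control and 3.73% for WMI. Of the control cells with astrocyte markers 0 of 295 met the rule at 3000 UMIs, which allows up to 1.02%, and of those with markers of oligodendrocyte precursors 0 of 155, which allows up to 1.94%, so the background in the control library rests on 1 cell. The 39 control cells that met the rule after thinning were 1.52% (1.08 to 2.07) of the 2563 selected cells and other excitatory neurons that had enough UMIs. That set held 334 selected cells and 2229 other excitatory neurons. The latter missed the rule at full depth and cannot meet it after thinning. The choice thus set part of this share, and nothing is concluded from it beside the background. In the WMI library the rule was met by 217 of 1964 such cells, beside 6 of 446 astrocyte-marked cells (1.35%, 0.495 to 2.91) and 0 of 231 with precursor markers, which allows up to 1.30%. The 3.73% of all WMI cells lay above that interval and that limit, unlike the interval of the microglia-marked cells. The difference between these gauges was not tested.

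The selected cells were spread over most clusters of their library. Each library was clustered on its own, and the 347 control cells fell into 19 of 23 clusters, of which the fullest held 66 of them. That control cluster 2 was led by Otof, Ccbe1, 6530403H02Rik, Klhl1 and Mdga1, and 7.78% of its 848 cells were selected. Control cluster 10, led by 1700023F02Rik, Dnah14, Col6a1, Slc26a4 and 4930407I19Rik, held 42 (17.5% of its cells). Control cluster 7, led by Tshz2, Gm26883, AC060761.1, Pappa and 9330185C12Rik, held 38 (8.78%). Control cluster 11, led by Erg, Stac, AI481877, Vat1l and Npr3, held 37 (15.6%). The 795 WMI cells fell into 24 of 28 clusters, and 330 of them (41.5%) lay in WMI cluster 1, led by Gm32647, B130024G19Rik, Ano2, Rarb and Adamtsl1. Selected cells were 45.5% (41.8 to 49.2) of the 726 cells of that cluster and 6.29% of all other WMI cells. WMI cluster 0, led by Klhl1, Kcnh5, Gm20752, Pdzrn3 and Cux2, held 121 (11.6% of its cells), and WMI cluster 9, with Dnah14, Hs3st2, Gm36251 and Il1rapl2 among its leading genes, held 92 (23.5%). The 7 rule genes, Gad1 and Gad2 were left out of the genes clustered, while leading genes were ranked over all genes, rule genes included. A doublet score marked 11.8% of the control and 7.04% of the WMI selected cells, against 8.23% and 6.68% of all cells, and the marked cells were kept.

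**Figure D3:**
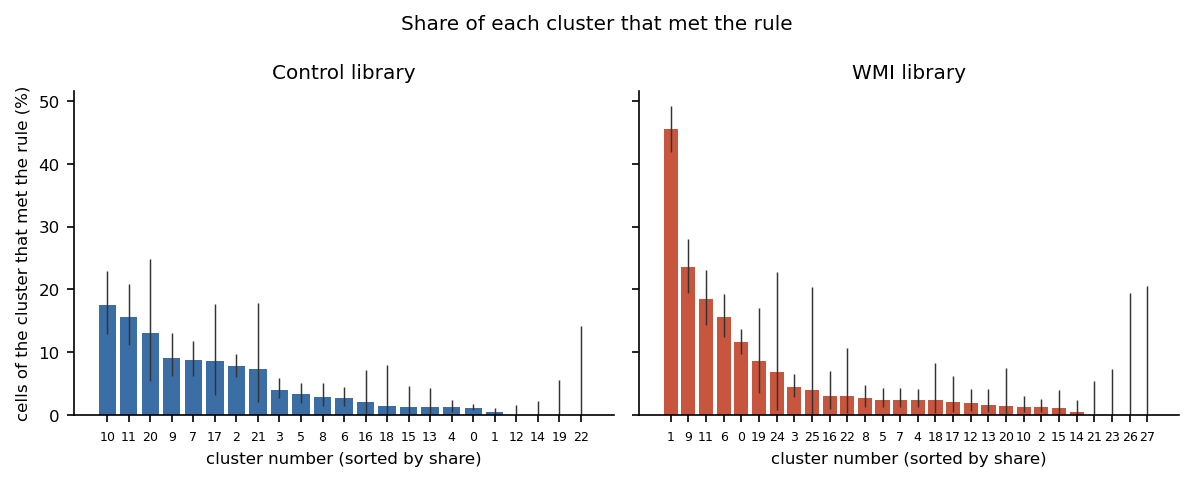
Percent of each cluster's cells that met the rule (vertical axis, bars from 0, with 95% exact binomial intervals as lines) by cluster number, sorted by that share (horizontal axis), for the control and WMI libraries, which were clustered apart. WMI cluster 1 stood at 45.5%, and the highest control cluster, number 10, at 17.5%.

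The selected cells carried cortical genes, at levels below those of other excitatory neurons in both libraries. Of the thalamic genes some had no UMI, some were lower than in those neurons and others were higher. No cells labelled as thalamic were there to compare. Over the cortical glutamatergic list (Slc17a7, Neurod6, Neurod2, Tbr1, Emx1 and Bcl11a) the summed level was 773 CPM in control selected cells against 968 in other excitatory neurons, a log2 ratio of -0.33 (-0.38 to -0.28). In the WMI library it was 629 against 927, a log2 ratio of -0.56 (-0.60 to -0.52). Bcl11a, a zinc finger transcription factor gene, was present in 93.9% of control and 85.9% of WMI selected cells. It stood at 498 CPM against 543 (control) and at 380.4 against 518 (WMI). Tbr1, a transcription factor gene of deep-layer neurons, stood at 11.2 against 19.6 in the control library. Slc17a7 belongs to this list and was also required, together with Slc17a6, of the comparison neurons alone. Without it the log2 ratios were -0.16 (control) and -0.46 (WMI).

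The thalamic list of 12 genes gave 65.9 CPM in control selected cells against 65.5 in other excitatory neurons, a log2 ratio of 0.009 (-0.17 to 0.18). In the WMI library it gave 106 against 96.7, a log2 ratio of 0.13 (0.014 to 0.25). Gbx2 and Shox2, which mark thalamic neurons, had 0 UMIs in the selected cells of both libraries, and Tnnt1 had 0 (control) and 1 (WMI). Gbx2, Lhx9, Tnnt1 and Shox2 all stood at 0 over the 4915265 UMIs of the control selected cells, which allows up to 0.610 CPM for each. Tcf7l2, which oligodendrocytes also use, stood at 12.6 CPM against 13.1 in the control library and at 36.9 against 32.8 in the WMI library. Slc17a6, the transporter of thalamic relay neurons, was lower in selected cells, at 12.6 against 20.4 (control) and 17.6 against 27.9 (WMI), and it too was used to admit the comparison neurons. Synpo2 was higher in selected cells, at 3.26 against 0.990 (control) and 7.82 against 2.93 (WMI), and so was Plekhg1, in the WMI library at 27.1 against 14.4. Lhx9 stood at 3.13 against 0.585 in the WMI library. The small difference of the list in the WMI library turned to -0.22 under the comparison neurons' limits and to -0.11 in cells with at least 5 of the 7 genes, and it was 0.36 without Slc17a6. Over the 4 tested genes of the list the median log2 ratio had the other sign, -0.20 (control) and -0.24 (WMI), beside -0.030 and -0.034 over all genes. The hypothalamic or midbrain list stood at 0.407 (control) and 1.48 (WMI) CPM.

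**Figure D4:**
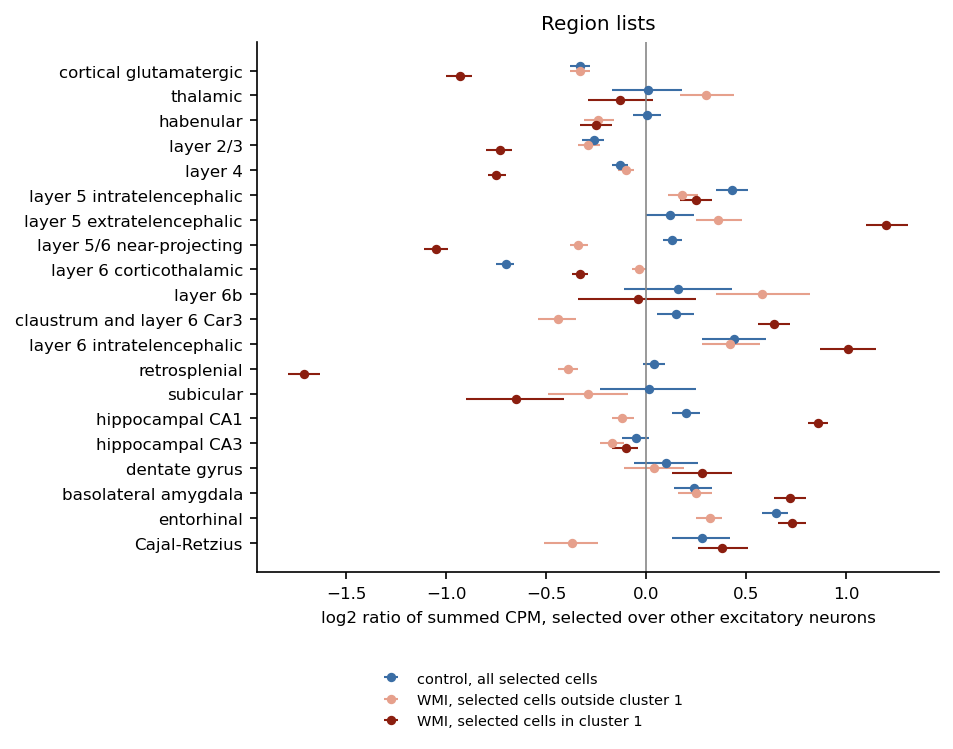
Log2 ratio of the summed CPM of each region list in selected cells to that in other excitatory neurons of the same library (horizontal axis), with 95% exact intervals, for control selected cells and for WMI selected cells outside and in WMI cluster 1. The cortical list lay at -0.33 (control), -0.33 (WMI outside the cluster) and -0.93 (in it), and the thalamic list at 0.009, 0.30 and -0.13.

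Among the layers of the cortex, the intratelencephalic lists of layers 5 and 6 gave ratios above 0 in both libraries and the layer 2/3, layer 4 and layer 6 corticothalamic lists ratios below 0. Log2 ratios of the layer 5 intratelencephalic list, whose neurons project within the cortex and striatum, were 0.43 (control) and 0.21 (WMI), and of the layer 6 intratelencephalic list 0.44 and 0.71. The layer 5 extratelencephalic list gave 0.12 (control) and 0.79 (WMI), with Npr3 at 45.5 CPM against 16.8 and Bcl11b at 112 against 64.6 in the WMI library. Fezf2 (13.2 against 15.6), Pou3f1 (3.65 against 6.61) and Fam84b (0.869 against 1.17) of the same list were lower there. The layer 2/3 list gave -0.26 (control) and -0.47 (WMI), and the layer 4 list, in which Il1rapl2 had the most UMIs, -0.13 (1455 against 1591 CPM) and -0.35 (1107 against 1408). The layer 6 corticothalamic list gave -0.70 (control) and -0.16 (WMI), with Syt6 at 14.9 against 39.7 and at 5.56 against 15.2. The entorhinal list gave 0.65 (control) and 0.51 (WMI), with Trps1 at 346 against 212 and 370.3 against 247. The median over the tested genes of that list was 0.71 (control) and 0.58 (WMI). Lists of the hippocampal CA1 field (0.20 and 0.39), the basolateral amygdala (0.24 and 0.47) and the claustrum and Car3 neurons of layer 6 (0.15 and 0.13) were also above 0, while the retrosplenial list stood at 0.040 (control) and -0.83 (WMI). In WMI selected cells outside cluster 1 the CA1 and claustrum lists were below 0, at -0.12 (598 against 649 CPM) and -0.44 (196 against 266). The layer 5 extratelencephalic, corticothalamic, retrosplenial, basolateral amygdala and layer 6 intratelencephalic lists stood there at 0.36, -0.036, -0.39, 0.25 and 0.42. The median over a list's tested genes had the other sign than its sum for the layer 5 extratelencephalic (-0.030) and retrosplenial (-0.11) lists in the control library and for the claustrum list (-0.058) in the WMI library. Of the 69 genes of the 21 region lists that had enough UMIs to compare, Fign (entorhinal) was the 1 gene that was 2-fold higher in both libraries and Syt6 the 1 gene 2-fold lower, beside 0.112% and 0.0173% of all genes compared. A call of layer by exclusive marker sets was possible for 36.9% (control) and 36.4% (WMI) of the selected cells, close to 37.3% and 35.5% of other excitatory neurons. Among those sets the near-projecting type of layers 5 and 6 took 4.03% (control) and 11.7% (WMI) of the selected cells against 2.30% and 5.81% of other excitatory neurons. It took 18.5% of the WMI selected cells in cluster 1 and 6.88% (4.75 to 9.58) of those outside it. These calls were not matched for depth, and the summed near-projecting list, carried by Tshz2, stood at 0.13 (control) and -0.60 (WMI) on the log2 scale.

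The clusters differed in these lists, so the average over the selected cells stood for no single type. The lists with the highest log2 ratios to other excitatory neurons in the selected cells of control cluster 2 were the dentate gyrus (1.07), entorhinal (0.85) and layer 2/3 (0.65) lists. In WMI cluster 0 they were the entorhinal (0.56), layer 2/3 (0.49) and dentate gyrus (0.45) lists. Without Trps1 the entorhinal ratios were 0.68 in control cluster 2 and -0.21 in WMI cluster 0. Control cluster 10 was highest in the layer 6 and layer 5 intratelencephalic lists (1.10 and 0.79), of which the second was -0.70 without Galnt14. Control cluster 11 was highest in the layer 5 extratelencephalic (1.49) and layer 5 intratelencephalic (1.33) lists, apart from a value of 1.52 for the Cajal-Retzius list that was Reln in 98.8% of its UMIs. Trp73 and Lhx1, which define Cajal-Retzius cells, had 0 UMIs in the control selected cells. WMI cluster 9 was highest in the layer 5 extratelencephalic (1.00), layer 5 intratelencephalic (0.88) and basolateral amygdala (0.86) lists. Control cluster 7 was highest in the entorhinal list (2.10), with Trps1 at 80.7% of its UMIs. Its subicular ratio of 1.47 was -0.14 without Fn1. Its retrosplenial (1.36) and near-projecting (1.24) ratios shared 1 gene, Tshz2, at 98.5% and 88.9% of the UMIs of the lists, and Tshz2 is a leading gene of that cluster. Without Tshz2 these ratios were 0.68 (on 12 UMIs) and 0.47.

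WMI cluster 1 stood apart from the other WMI selected cells in region genes. Its 330 selected cells had a summed cortical list of 486 CPM against 739 in the 465 others, which is -0.93 and -0.33 on the log2 scale relative to other excitatory neurons. Bcl11a stood at 251 CPM in the cluster's selected cells and at 479.8 in the others, beside 498 in control selected cells. The thalamic list was not higher in the cluster, at 88.7 CPM against 119 outside it. Within that list, Lhx9 (6.79 against 0.308), Synpo2 (11.4 against 5.08) and Slc17a6 (21.4 against 14.8) were higher in the cluster and Tcf7l2 (20.6 against 49.6) and Ramp3 (3.39 against 9.55) lower. The layer 5 extratelencephalic and layer 6 intratelencephalic lists were high in the cluster's selected cells (log2 ratios 1.20 and 1.01), but not through all their genes. Npr3 (62.9 CPM), Crym (53.9) and Bcl11b (152) carried the first list, while Fezf2 (10.2 against 15.6 in other excitatory neurons), Pou3f1 (3.59 against 6.61) and Fam84b (0.799 against 1.17) were lower. The second rested on Col23a1 (134 against 46.4), with Sulf1 at 24.4 against 31.5. Foxp2 of the corticothalamic list was low, at 18.4 against 76.8 in the other WMI selected cells, and so were Tshz2 (283 against 716) and Cux2 (62.7 against 127). The CA1 (0.86), entorhinal (0.73), basolateral amygdala (0.72) and claustrum (0.64) lists also stood above other excitatory neurons there. Without Synpr the claustrum ratio was 0.16. The CA1 ratio rested on Zbtb20, which stood at 918 CPM against 267 in the other WMI selected cells, and it was -0.17 without that gene, with Mpped1 (-0.45), Wfs1 (-0.43) and Man1a (-0.060) below 0. Trhr, of the near-projecting list, stood at 37.9 against 9.39. That list as a whole was at -1.05, and at 0.34 without Tshz2.

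The rule genes were left out of the genes clustered, but they chose the cells. Their levels in the selected cells of that cluster thus describe the choice and are not a result. Ano2 stood at 45.5 CPM in the cluster's selected cells and at 11.2 in the other WMI selected cells, Chst9 at 110.2 and 34.0, Car12 at 41.7 and 10.5, and Cpne7 at 263 and 132. Ntng1 was similar, at 512 and 492. Outside the cluster, the WMI levels of Ano2 (11.2) and Car12 (10.5) lay near the control levels of 7.93 and 13.4. The 396 cells of the cluster that did not meet the rule had medians of 8126.0 UMIs against 13513.0 in those that did, and held Cpne7 at 143 and Ano2 at 11.6 CPM, above the 46.2 and 1.42 of other excitatory neurons. They differed from the cluster's selected cells in other genes too. Rarb, a leading gene of the cluster, stood at 232 CPM in them against 35.9 in the selected cells, and Foxp2 at 76.9 against 18.4. Gm32647 was lower in them, at 571 against 899. Between the cluster's selected cells and the other WMI selected cells, 155 of 9250 genes were 2-fold higher and 198 were 2-fold lower. Genes named next were chosen after their values were seen. Gm32647 stood at 899 against 137 CPM, B130024G19Rik at 188 against 31.9, 9530026P05Rik at 100.3 against 12.3 and Dach1, a transcription factor gene, at 184 against 29.3. The transcription factor genes Nr2f2 (57.3 against 15.2) and Tfap2d (10.2 against 1.39) were higher too. Mobp, a myelin gene, was lower, at 7.39 against 40.3.

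Between the cluster's selected cells and other excitatory neurons of the WMI library, 202 of 10744 genes were 2-fold higher (1.88%) and 285 were 2-fold lower (2.65%). Of the 29 axon guidance genes 5 were higher (Slit3, Epha6, Robo1, Slit2 and Nrp2) and 2 lower (Efna5 and Ntn4), with Nrp2, a semaphorin receptor, at 151 CPM against 65.8 and Ntn4, a netrin, at 3.79 against 17.3. Of 12 tested monoamine and acetylcholine receptor genes, the serotonin receptor genes Htr2c (257 against 99.0) and Htr4 (119.6 against 46.7) and the nicotinic receptor gene Chrna7 were higher, and the muscarinic receptor genes Chrm2 (51.1 against 134) and Chrm3 were lower. Of 16 cadherins, Cdh4 (311 against 92.7) and Cdh9 (246 against 105) were higher and Cdh6 (61.3 against 209.9) and Cdh12 lower. Of 16 tested ionotropic glutamate receptor genes 1 was higher, Gria1, an AMPA receptor subunit, at 2141 against 965. Of 12 GABA-A receptor subunits 1 was higher, Gabra2, at 816 against 340.1. Of 7 metabotropic glutamate receptor genes Grm2 and Grm3 (108 against 401) were lower, and of 20 voltage-gated potassium channel genes Kcnh1 and Kcnh5 (69.7 against 334). None of the 17 voltage-gated sodium and calcium channel genes was past 2-fold, which beside 1.88% and 2.65% of all genes says nothing particular of them.

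The control library held a small cluster that shared some of the genes of WMI cluster 1 and not others. The summed level of 10 leading genes outside the rule (Gm32647, B130024G19Rik, Rarb, Adamtsl1, Ndst4, Rerg, Gm6999, Cdh4, 9530026P05Rik and Htr2c) was 2224 CPM in WMI cluster 1 and 2211 in control cluster 21, which had 54 cells. The next control cluster stood at 1113, and control selected cells at 524. Control cluster 21 was led by Oprk1, Nr4a2, Col11a1, Ntng2 and B130024G19Rik, genes that include claustrum and Car3 markers, and Ntng2 stood there at 1031 and Oprk1 at 190.2 CPM. In the selected cells of WMI cluster 1 they stood at 127 and 10.2. Nr2f2 (87.0 CPM), Tfap2d (69.3) and Car12 (30.6) had their highest control level in cluster 21, and they stood at 57.3, 10.2 and 41.7 in the selected cells of WMI cluster 1. Control cluster 21 held 4 selected cells (7.41%), Ano2 at 0 UMIs, Cpne7 at 41.9 and Dach1 at 3.22 CPM. At least 6 of the 10 genes were present in 49 control cells (0.514%) and 274 WMI cells (3.38%), of which 5 and 138 were selected. The 10 genes were leading genes of WMI cluster 1, the comparison sets selected cells against a whole control cluster in part, and none of it was tested.

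Few genes outside the rule set the selected cells apart from other excitatory neurons in both libraries. Of 11582 genes, 13 were 2-fold higher (0.112%) and 2 were 2-fold lower (0.0173%) in both. Only 5 of these 15 genes were still past 2-fold in both libraries when the selected cells were held to the comparison neurons' limits (7 genes higher and 8 lower in all), 5 with a mean of per-cell levels (9 higher and 4 lower) and 5 without WMI cluster 1 (5 higher and 1 lower). In the control library alone 36 were higher and 42 lower, and in the WMI library 60 and 31. The median log2 ratio over all genes was -0.030 (control) and -0.034 (WMI), with 90% of the genes between -0.50 and 0.39 and between -0.46 and 0.42. The noncoding RNA 9330185C12Rik stood highest, at 23.2 CPM against 3.79 (control) and 13.8 against 2.26 (WMI), a log2 ratio of 2.61 in both. Hpcal1, a neuronal calcium sensor, stood at 16.9 against 4.37 (control) and 32.1 against 9.53 (WMI), and Fign, a microtubule-severing enzyme, at 26.2 against 8.21 and 46.5 against 18.2. Stac, an adaptor of calcium channels, stood at 30.5 against 12.9 and 46.9 against 17.3. Ptpn14, a tyrosine phosphatase, Tanc1, a scaffold of the postsynaptic density, Rftn1, a lipid raft protein, Plce1, a phospholipase C, and Ror1, a receptor of Wnt5a, had log2 ratios of 1.53, 1.17, 1.16, 1.10 and 1.17 in the control library and of 1.20, 1.28, 1.11, 1.26 and 1.02 in the WMI library. Gm41414, Phactr2 and the heparan sulfate enzyme gene Ndst4 were the others of the 12 highest. Syt6, a synaptotagmin of corticothalamic neurons, had log2 ratios of -1.42 and -1.45, and Gm29069 of -1.10 and -1.05.

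In no list of gene function, those of relatives of the rule genes included, was any gene 2-fold higher or lower in both libraries. Beside the 0.112% and 0.0173% of all genes, that says nothing particular of these lists. The other copines summed to log2 ratios of 0.072 (control) and -0.10 (WMI), with Cpne2 at 0.89 and 1.78 and Cpne9 at -0.73 and -1.19. The other anoctamins summed to -0.14 and 0.086, and the netrin-G proteins and their ligands without Ntng1 to -0.15 and -0.098, among which Lrrc4c, the partner of netrin-G1, stood at 2679 CPM against 2984 in the control library. Voltage-gated potassium channels stood at -0.042 and -0.24, axon guidance genes at 0.088 (with a median of -0.046) and 0.26, and neuropeptides at -0.41 and -0.35. General neuronal genes (the neuronal identity list) stood at 11479.5 against 11784 CPM (control) and 10363 against 10925 (WMI), so the selected cells carried neuronal transcripts at nearly the level of other excitatory neurons.

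Markers of other cell types were present in the selected cells. The 6 microglial genes all had UMIs in both libraries, and their sum stood at 73.6 CPM against 67.8 in other excitatory neurons (control) and at 187 against 171 (WMI). P2ry12 had the most UMIs of them in the control and C1qa in the WMI selected cells. The 4 oligodendrocyte genes, of which Mobp had the most UMIs, were all present too and summed to 62.3 against 55.1 (control) and 53.6 against 27.3 (WMI), a log2 ratio of 0.98 in the WMI library that was 1.47 outside cluster 1. In the control library the sum gave 0.18 and the median of the tested genes -0.32. Mog, of mature myelin, stood at 11.4 against 5.73 (control) and 5.74 against 1.59 (WMI). The 6 astrocyte genes summed to 611 CPM (control) and 533 (WMI), and their log2 ratios were -0.20 (control) and -0.18 (WMI) for their sum, of which Slc1a2 made up most, and 0.28 and 0.37 for the median of those tested. Slc1a3 stood at 70.2 against 25.3 in the WMI library. The GABAergic list, without Gad1 and Gad2, summed to 211 CPM (control) and 195 (WMI), with Adarb2 at 97.3% and 97.0% of its UMIs, and its log2 ratios were -0.017 and -0.34. The fibroblast list gave a log2 ratio of 1.47 in the WMI library, carried by Dcn, a matrix proteoglycan, at 253 UMIs in selected cells (22.0 CPM against 5.18 in other excitatory neurons), while Lum had 0 (control) and 6 (WMI) UMIs. Outside cluster 1 the ratio was 0.68 (15.4 against 9.62 CPM), with Dcn at 10.9 CPM against 36.3 in the cluster's selected cells. The endothelial list stood at 4.68 (control) and 6.96 (WMI) CPM and the pericyte list at 1.63 and 3.30, with Ly6c1 and Kcnj8 at 0 UMIs in the control cells. The comparison neurons, but not the selected cells, had a limit on glial UMIs. The part of other cells' RNA in the differences above was not tested.

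Between the libraries, the selected cells of the WMI group differed from those of the control group in 327 of 10605 genes by 2-fold, 244 higher (2.30%) and 83 lower (0.783%). Among the same 10605 genes, 195 were 2-fold higher and 59 lower in other excitatory neurons, whose ratios come from the same 2 libraries. Outside WMI cluster 1, 160 were higher and 47 lower. The median log2 ratio over all genes was 0.008. With 1 library a group these are values of the libraries and not tested differences between conditions.

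On the WMI side the 10 genes with the highest ratios were Xist, Gpnmb, Tsix, Spp1, Lyz2, Gfap, Dach1, Ddx60, Cyba and Ctsd. Spp1, osteopontin of activated microglia, had 0 UMIs in control and 405 in WMI selected cells and was at least 57.7-fold higher, computed against a floor of 3 UMIs over the control group. Gpnmb and Lyz2, of phagocytes, stood at 0.203 (control) against 14.3 (WMI) and 0.203 against 11.2 CPM, each with 1 control UMI. Ctsd, a lysosomal protease, stood at 17.7 against 178, and Gfap, of reactive astrocytes, at 1.02 against 25.2. Other excitatory neurons were higher in the WMI library too, and the difference between the 2 kinds of neuron was not tested, with Gpnmb at 0.412 against 23.3, Lyz2 at 0.371 against 16.1, Ctsd at 30.6 against 222 and Gfap at 1.57 against 24.2. The microglial list was 1.35 higher on the log2 scale in WMI selected cells and 1.33 in WMI other excitatory neurons. In the selected cells 4 of its 6 genes were 2-fold higher, beside 2.30% of all genes. Of these 4, Tyrobp had 9 control and 148 WMI UMIs, C1qa 36 and 534, and C1qb 45 and 433. Each of them reached the minimum of UMIs per gene through its WMI count. Their calls were thus set by that minimum, and nothing is concluded from them. Ddx60, an interferon-induced gene, had a log2 ratio of 3.46 (4.36 in other excitatory neurons) and Cyba, a subunit of the phagocyte oxidase, of 3.45 (3.19). Mitochondrially encoded genes stood at 1141 (control) and 3162 (WMI) CPM, a log2 ratio of 1.47, and at 988 and 4766 in other excitatory neurons (2.27). Xist had 0 UMIs in control and 7194 in WMI selected cells, at least 1025-fold higher, and Tsix had log2 ratios of 6.08 and 6.83.

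Of the 10 highest genes with a ratio in both kinds of neuron, Dach1 had the widest gap between the ratios, which was not tested. It stood at 5.09 CPM in control and 96.7 in WMI selected cells, a log2 ratio of 4.25 (3.68 to 4.88), and at 6.76 and 34.6 in other excitatory neurons. Outside cluster 1 it stood at 29.3. Of the rule genes, Chst9 (19.9 and 67.2) and Ano2 (7.93 and 26.2) were past 2-fold, and outside the cluster Chst9 stood at 34.0 and Ano2 at 11.2. Because these genes chose the cells, their values describe the choice and are not a result. Cdh4 (82.6 and 191), Htr2c (59.8 and 153) and Htr4 (33.4 and 74.4) were likewise past 2-fold, and outside the cluster they stood at 98.2, 73.0 and 39.6. Zbtb20 stood at 141 in control and at 267 in WMI selected cells outside the cluster, and at 139.7 and 358 in other excitatory neurons.

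On the control side Erg, an ETS transcription factor gene and a leading gene of control cluster 11, stood at 16.7 CPM against 2.43 in WMI selected cells, a log2 ratio of -2.78 (-3.45 to -2.14), and at 9.77 against 3.76 in other excitatory neurons. Gm26906 stood at 62.5 (control) against 13.0 (WMI), 4933411E02Rik at 24.8 against 5.39 and Gm20752 at 34.4 against 8.87. Col24a1, a fibrillar collagen, stood at 24.8 against 6.69, Hr, a corepressor of nuclear receptors, at 12.4 against 3.83 and Lrtm1 at 46.6 against 14.6. Gm15083, Gm14372 and BC006965 had log2 ratios of -1.79, -1.57 and -1.52. In other excitatory neurons Gm26906 (-2.49) and Lrtm1 (-1.82) had ratios as low, whereas Col24a1 (-0.72), Hr (-0.49) and 4933411E02Rik (-0.56) lay within 2-fold, and these contrasts between the 2 kinds of neuron were not tested.

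**Figure D5:**
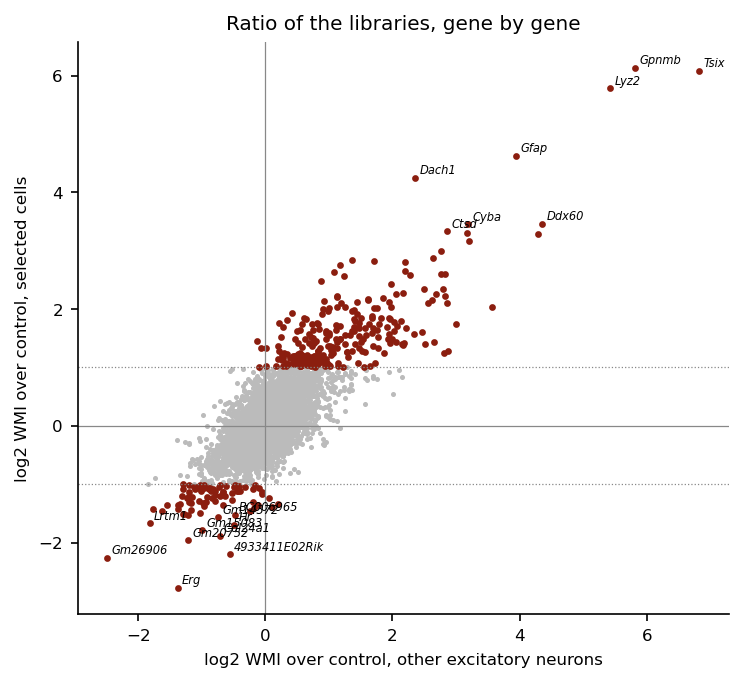
Log2 ratio of WMI to control for each of 10603 genes in the selected cells (vertical axis) against the same ratio in other excitatory neurons (horizontal axis), with dotted lines at 2-fold. The 325 genes past 2-fold are drawn in dark red, Spp1 and Xist with 0 UMIs in control selected cells are not drawn, and Dach1 stands at 4.25 against 2.36.

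Region lists differed between the libraries by unlike amounts in the 2 kinds of neuron, and these contrasts were not tested. The layer 5 extratelencephalic list was higher in WMI than in control selected cells by a log2 ratio of 0.69, against 0.018 in other excitatory neurons, and the CA1 list by 0.94 against 0.75. The basolateral amygdala list was higher by 0.69 against 0.46 and the corticothalamic list by 0.36 against -0.19. The cortical glutamatergic list was at -0.30 (-0.35 to -0.24), at -0.065 outside cluster 1 and at -0.062 in other excitatory neurons. None of its 6 genes was 2-fold higher or lower, which beside 2.30% and 0.783% of all genes says nothing particular of the list. The thalamic list was higher in WMI selected cells, at 106 CPM against 65.9, a log2 ratio of 0.69 (0.51 to 0.87), and it was 0.86 outside cluster 1 and 0.56 in other excitatory neurons. Of its 5 tested genes Tcf7l2 and Synpo2 were 2-fold higher, beside 2.30% of all genes. Synpo2 had 16 control and 90 WMI UMIs, and Tcf7l2 had 62 control UMIs and 322 in WMI selected cells outside cluster 1. Both reached the minimum of UMIs per gene through their WMI counts. Their calls were thus set by that minimum, and nothing is concluded from them. The layer 2/3 list stood at -0.39 against -0.19, and the retrosplenial list at -0.21 against 0.65. Set against control selected cells, the WMI selected cells outside cluster 1 turned the retrosplenial list to 0.22 (0.16 to 0.29), the near-projecting list from -0.084 to 0.18 and the claustrum list from 0.32 to -0.25. They gave 0.26 for the layer 5 extratelencephalic, 0.43 for the CA1, 0.47 for the basolateral amygdala, 0.48 for the corticothalamic and -0.21 for the layer 2/3 list. Of the 12 hypoxia response genes, 0 of the 6 tested were past 2-fold, with a summed level of 101 (control) and 89.7 (WMI) CPM, and of 14 immediate-early genes 0 of 6, with 298 and 329. Against the 2.30% and 0.783% of all genes, 0 of 6 says nothing particular of either list.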

How the data were processed

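Filtered UMI count matrices deposited by the authors, 1 per library, were used as raw counts per gene. Per the file headers they were made with Cell Ranger 6.1.1, and the submitters' processing notes name Seurat and the mm9 build. All 55450 gene identifiers matched GENCODE M21 (GRCm38). The chosen rule and gene lists were drawn up with earlier results of these data known. Levels (CPM) are scaled to 1000000 UMIs over the pooled cells of a set, and genes with at least 100 UMIs over the 2 sets compared entered counts of 2-fold differences. Each library was clustered in scanpy 1.11.5 (2000 variable genes without the 7 rule genes, Gad1 and Gad2, 30 principal components, 15 neighbours, Leiden resolution 1). Doublets were scored by simulation and kept. Some genes of the lists are not reported here and were left out of the sums. The study's methods describe integrating replicates, which the deposited single libraries did not allow. With 1 library a group no test was run, and the ratio code was tested on simulated data. Named genes were the 7 rule genes, genes of 52 fixed lists, the 12 most different each way from other excitatory neurons in both libraries, the 10 highest and lowest between libraries, and the 5 leading genes of clusters with at least 10% of a library's selected cells, with exceptions said in the text. Alternatives changed the threshold on rule genes, each rule gene, depth, filters, doublets, the comparison neurons and the minimum UMIs per gene.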

Additional observations from a re-analysis of the deposited data

How the results depend on the processing

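The WMI library held the higher share of selected cells under every alternative run. The difference in the share of all cells, 6.16 percentage points, was 7.44 with at least 3 of the 7 genes and 2.52 with at least 5, 3.15 and 0.301 after thinning to 3000 and 1000 UMIs, 7.08 with at most 2% mitochondrial UMIs, 5.09 with no Gad1 or Gad2 UMI and 4.69 among cells without Xist or Tsix. Without Cpne7, Chst9, Ntng1, 6530403H02Rik or B230303A05Rik in the rule it was 3.29, 5.14, 3.05, 2.96 and 2.56. Rules added after the data were seen gave 3.45 (at least 2 of Cpne7, Ano2, Chst9 and Car12) and 2.66 (without WMI cluster 1). The difference in the share of excitatory neurons, 26.6 points, was 12.2 with at least 5 genes, 9.53 and 1.08 after thinning to 3000 and 1000 UMIs, 15.8, 23.5, 14.5, 14.3 and 12.5 without those same 5 genes in turn, 23.7 without Xist or Tsix cells, 16.4 with the added rule of 2 genes, 17.0 without WMI cluster 1 and 10.6 under the comparison neurons' limits.

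The cortical list ratio in the control library, -0.33, was -0.24 with at least 5 genes, -0.20 between the 10th and 90th depth percentiles, -0.25 under the comparison neurons' limits, -0.51 as a mean over cells and -0.16 without Slc17a7. In the WMI library, -0.56 was -0.74 with at least 5 genes, -0.37 under the limits, -0.66 as a mean over cells, -0.46 without Slc17a7, -0.67 without Xist or Tsix cells and -0.38 without cluster 1. The thalamic ratio in the control library, 0.009, was -0.59 with at least 5 genes, 0.23 in the depth range, -0.33 under the limits, -0.30 per cell and 0.24 without Slc17a6. In the WMI library, 0.13 was -0.11, 0.53, -0.22, -0.045 and 0.36, so 3 of these reversed it, and 0.34 without cluster 1. The 15 genes apart from other excitatory neurons became 61 with at least 5 rule genes, 6 without cluster 1 and 28 at 50 UMIs per gene. They numbered 15 under the limits and 13 as a mean over cells, of which 5 in each case were among the original 15. The 327 genes apart between libraries became 209 without Xist or Tsix cells, 190 without cluster 1, 175 under the limits, 175 at 200 UMIs per gene and 620 at 50. The fullest WMI cluster held 34.8% of the selected cells, not 41.5%, at resolution 2. The cause of these changes was not tested.

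No paired analysis was possible because each group held 1 library. Leaving out a replicate could not be done either. The intervals cover counting error, and 1 library a group gives no measure of the spread between animals. Depth limits the selection: of cells with 2500 to under 5000 UMIs, 1.05% (control) and 2.62% (WMI) met the rule. Free RNA was not removed.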
